A study of Mus with 6 samples.

Results

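The 8 genes described here encode enzymes of folate and one-carbon metabolism and a folate carrier: Mthfd1, Mthfd2, Mthfd1l, Shmt1, Shmt2, Mtr, Mtrr and Slc19a1. They were taken by gene symbol from the deposited table of 54532 genes, and all 8 were found, each on a single row. RNA sequencing libraries from 3 wild-type mice (WT) and 3 Cntnap4 knockout mice (KO) were compared, all labelled as male and as tissue of the basolateral amygdala, which takes part in fear learning. The sources used here do not give the strain, the age, the deleted part of Cntnap4 or whether the knockout is constitutive. The sample labels name no treatment, although Lactobacillus reuteri, a gut bacterium, stands in the series title.

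Folate carries single-carbon units that cells use to make purines and thymidylate and to regenerate methionine, the source of methyl groups for DNA, RNA, lipids and neurotransmitters. Serine is the main donor, and it is split by serine hydroxymethyltransferases in the cytosol (Shmt1) and in mitochondria (Shmt2). The carbon unit is then oxidised or reduced by the Mthfd enzymes, and mitochondria export it to the cytosol as formate. In the cytosol methionine synthase (Mtr), kept active by its reductase (Mtrr), passes a methyl group from folate to homocysteine, with cobalamin as cofactor.

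Libraries held 17647556 to 20813211 reads in genes, recovered from FPKM (fragments per kilobase, relative to library size) and gene length. Cntnap4 gave 2.03, 3.59 and 4.91 FPKM from WT replicates 1 to 3, and KO replicates 1 to 3 gave 1.61, 1.00 and 1.48 FPKM. Its log2 difference of -1.05 ± 0.28 (SE) missed the threshold (limma adjusted p = 0.220). Among the libraries, KO replicates 1 and 2 and WT replicate 3 stood apart. In WT replicate 3 the FPKM values summed to 264447, against 291863 to 303931 in the other libraries. Its mitochondrial share of reads was 3.42%, against 5.63% to 8.14%. KO replicate 1 held 43.0 FPKM of Xist, a transcript of females (at most 0.0346 FPKM elsewhere), and 0 reads on 4 Y-linked genes, which goes against its male label. In KO replicate 2, 8 hypothalamic neuron markers summed to 6.32 FPKM, against 349 to 1090 FPKM in the other 5 libraries. Avp and Oxt made up most of the sums in those 5 libraries. Oxt was also low in KO replicate 3, at 12.5 FPKM, against 133 to 209 FPKM in WT. Rspo2, a marker of basolateral amygdala projection neurons, was low, at 0.378 to 0.522 FPKM in WT and 0.718 to 1.09 FPKM in KO, so values are of the pieces as dissected. In such bulk tissue, fewer cells of a type and less RNA per cell cannot be told apart. Since the labels only number the mice, the p-values cover the spread among these samples, which may be technical.

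All 8 genes were transcribed in all 6 libraries, and for none of them did the difference between KO and WT pass the adjusted threshold of 0.05. The test was limma on log2(FPKM + 0.5), with Benjamini-Hochberg adjustment over 16155 genes, of which 0.0124% passed. The smallest adjusted p among the 8 was 0.315, for Mthfd2. At an unadjusted p under 0.05 there was 1 of the 8, Mthfd2, lower in KO, where 15.2% of all genes tested reached that level in either direction. Voom on the recovered reads also passed 0 of the 8 over all genes, with Mthfd2 again the 1 gene at an unadjusted p under 0.05. In the deposited FPKM, groups without overlap were found for 2 of the 8, Mthfd2 lower and Mthfd1l higher in KO, beside 22.6% of all genes. Both shares are close to what the whole table gave. The median log2 difference of the 8 was 0.10, beside 0.01 for all genes tested, and 7 of the 8 had a positive difference, beside 51.5% of all genes, although Mthfd1 and Mtr turned negative under another scaling.

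The levels, which FPKM allows to be compared between genes per length, spanned an order from Mthfd1 down to Shmt1. Mthfd1 was highest, with a mean of 10.7 FPKM over the 6 libraries and rank 4771 of all genes. Shmt2 followed at 5.90 FPKM. Neither the ranges of Mthfd1 and Shmt2 nor those of Shmt2 and the next gene overlapped, so these steps exceeded the spread between libraries. In the middle stood Slc19a1 (3.41 FPKM), Mthfd1l (3.29 FPKM), Mtr (2.87 FPKM), Mthfd2 (2.58 FPKM) and Mtrr (2.39 FPKM), and the range of each overlapped that of its neighbour. Mtr and Mthfd2 changed places from library to library, with Mtr the higher in 3 of 6. Shmt1 was lowest, at 0.947 FPKM and rank 14067, and its range lay below that of Mtrr.

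**Figure D1:**
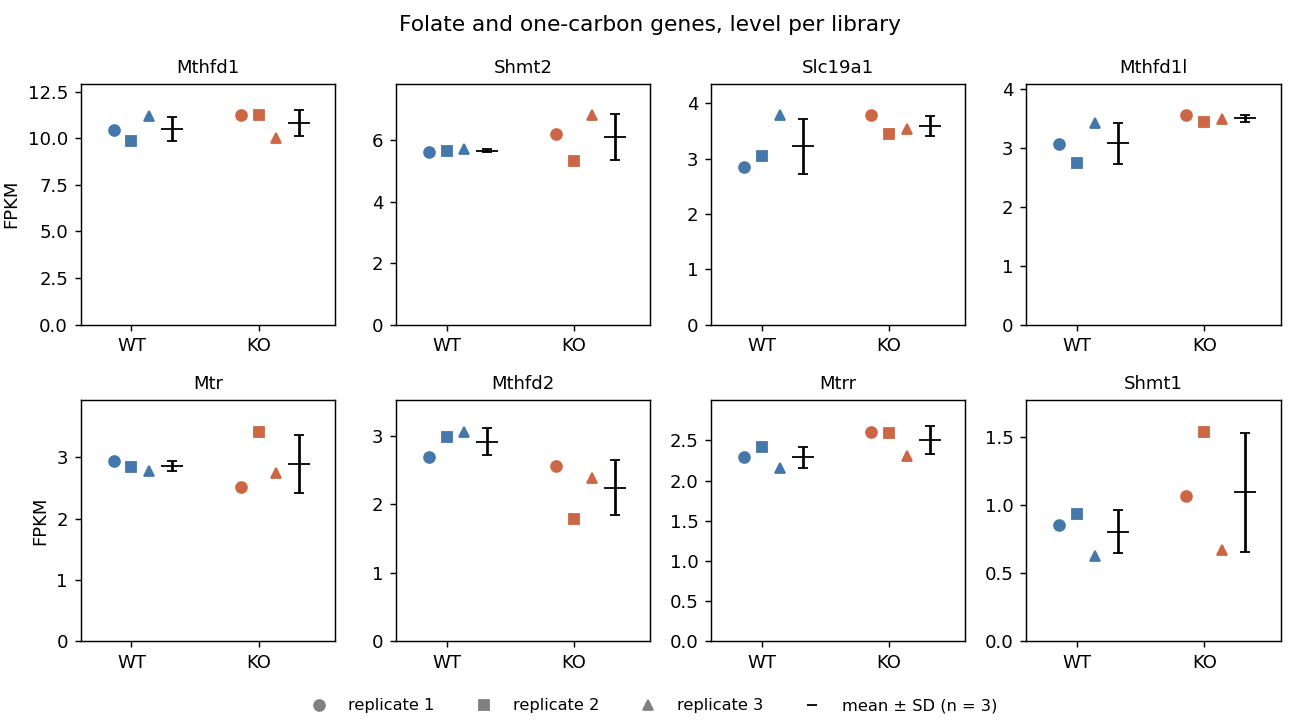
Level of each gene in FPKM (vertical axis, from 0, its own scale per gene) in the WT and KO libraries, with marker shape for the replicate number and a bar for the mean ± SD (n = 3). Mthfd1 lies near 10.7 FPKM in every library, Mthfd2 lies lower in each KO library than in any WT library, and Shmt1 in KO replicate 2 reaches 1.54 FPKM.

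Folate enters cells through Slc19a1, the reduced folate carrier of the plasma membrane (ENSMUSG00000001436, chromosome 10, 77032241 to 77061002, plus strand, GRCm38). It gave 2.85, 3.04 and 3.78 FPKM from WT replicates 1 to 3, and KO replicates 1 to 3 gave 3.79, 3.45 and 3.54 FPKM. WT replicates 1 and 2 were the lowest of the 6 libraries. WT replicate 3 stood level with KO replicate 1 and above KO replicates 2 and 3, so the groups overlapped. The log2 difference was 0.14 ± 0.11 (SE), and its 95% interval ran from -0.13 to 0.41, or 0.915 to 1.33 times WT on the FPKM + 0.5 scale. Without WT replicate 3 the difference was 0.25 and reached an unadjusted limma p of 0.0432 (adjusted p = 0.355), and without WT replicate 1 it was 0.07. Slc19a1 shares 8825 bases of its span with Col18a1 on the opposite strand, which had 89 to 176 reads against 244 to 382 for Slc19a1. Whether counting used strand is not given, so reads of the 2 genes may not be separated.

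Shmt1 and Shmt2, the cytosolic and mitochondrial serine hydroxymethyltransferases, split serine into glycine and a folate-bound carbon unit. Shmt2 (ENSMUSG00000025403, chromosome 10, 127517123 to 127522444, minus strand) gave 5.63, 5.67 and 5.71 FPKM from WT replicates 1 to 3, and KO replicates 1 to 3 gave 6.21, 5.33 and 6.83 FPKM. The WT libraries were nearly level, whereas KO replicate 3 was the highest and KO replicate 2 the lowest of all 6. The coefficient of variation was 0.709% in WT and 12.3% in KO, where counting error alone gives 5.39% at the mean of these reads. The log2 difference was 0.10 ± 0.10, with a 95% interval of -0.14 to 0.33. Leaving out KO replicate 2 gave 0.18, and leaving out KO replicate 3 gave 0.02.

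Shmt1 (ENSMUSG00000020534, chromosome 11, 60788104 to 60811718, minus strand) gave 0.852, 0.931 and 0.628 FPKM from WT replicates 1 to 3, and KO replicates 1 to 3 gave 1.07, 1.54 and 0.669 FPKM. It had the widest spread of the 8, 2.45 times from the lowest to the highest library, on 46 to 108 reads. KO replicate 2 was high and KO replicate 3 lay among the WT libraries. The 95% Poisson interval of KO replicate 2, which covers counting error only, was 1.26 to 1.86 FPKM, above that of KO replicate 3 (0.489 to 0.892 FPKM). If each read is independent, these 2 KO libraries differed by more than counting error. The log2 difference was 0.26 ± 0.23, and the interval of -0.27 to 0.79 corresponds to 0.827 to 1.73 times WT on the FPKM + 0.5 scale, which understates the range for a gene this low. Without KO replicate 2 the difference was 0.06, without KO replicate 3 it was 0.46, and without WT replicate 3 it was 0.16. The 3' end of Shmt1 shares 184 bases with Smcr8 on the opposite strand, which had 860 to 1099 reads and means of 6.28 FPKM in WT and 6.27 FPKM in KO.

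The mitochondrial isozyme made up most of the serine hydroxymethyltransferase transcripts per length. The share of Shmt2 in the summed FPKM of Shmt1 and Shmt2 was 86.9%, 85.9% and 90.1% for WT replicates 1 to 3, against 85.3%, 77.6% and 91.1% for the 3 KO libraries. Replicate 2 of KO was the lowest and replicate 3 of KO the highest, so the groups overlapped. The mean share was 87.6% ± 2.20 in WT and 84.7% ± 6.75 in KO (SD, n = 3 each), and the exact two-sided permutation p was 0.6, or 0.7 after adjustment over 3 such shares. Without KO replicate 2 the KO mean was 0.580 points above WT, in place of 2.94 points below (KO minus WT, -2.94 points).

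The Mthfd enzymes interconvert the oxidation states of folate-bound carbon. Mthfd1, a cytosolic enzyme with dehydrogenase, cyclohydrolase and synthetase activity (ENSMUSG00000021048, chromosome 12, 76255298 to 76319803, plus strand), measured 10.4, 9.88 and 11.2 FPKM in WT replicates 1 to 3. In KO replicates 1 to 3 it measured 11.2, 11.2 and 10.01 FPKM. The highest library exceeded the lowest by 1.14 times, the narrowest range of the 8. The log2 difference was 0.04 ± 0.08, with a 95% interval of -0.15 to 0.24, or 0.901 to 1.18 times WT on the FPKM + 0.5 scale. It was 0.00 without WT replicate 2 and 0.10 without KO replicate 3. Its sign turned when libraries were rescaled to an equal FPKM sum (-0.01) and with voom on recovered reads (-0.0014).

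Mthfd1l, the mitochondrial formyltetrahydrofolate synthetase that releases formate (ENSMUSG00000040675, chromosome 10, 3973118 to 4167081, plus strand), measured 3.07, 2.75 and 3.43 FPKM in WT replicates 1 to 3. In KO replicates 1 to 3 it measured 3.56, 3.45 and 3.50 FPKM. In the deposited FPKM each KO library was above each WT library, although KO replicate 2 and WT replicate 3 were nearly level. Of all genes tested, 11.8% had non-overlapping groups with KO higher. The WT mean was 3.08 ± 0.344 FPKM and the KO mean 3.50 ± 0.0553 FPKM (SD, n = 3 each). The log2 difference of 0.16 ± 0.10 missed the threshold (limma unadjusted p = 0.139, adjusted p = 0.467), with a 95% interval of -0.07 to 0.40. It ranged from 0.10 without WT replicate 2 to 0.23 without WT replicate 3. After rescaling to an equal FPKM sum the Mthfd1l difference was 0.11 (limma unadjusted p = 0.422). That rescaling raises WT replicate 3, the highest WT library for this gene, so the groups need not stay apart.

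Mthfd2, the mitochondrial dehydrogenase and cyclohydrolase known for its high level in embryonic and proliferating cells (ENSMUSG00000005667, chromosome 6, 83305691 to 83325908, minus strand), measured 2.69, 2.98 and 3.06 FPKM in WT replicates 1 to 3. In KO replicates 1 to 3 it measured 2.56, 1.79 and 2.38 FPKM, from 168, 113 and 147 reads. All KO libraries were below all WT libraries, and the gap between KO replicate 1 and WT replicate 1 was small beside their 95% Poisson intervals (2.19 to 2.98 and 2.30 to 3.12 FPKM). Of all genes tested, 10.8% had non-overlapping groups with KO lower, and 6.85% had an unadjusted p under 0.05 with KO lower. The means were 2.91 ± 0.196 FPKM in WT and 2.24 ± 0.403 FPKM in KO, so the KO mean was 77.1% of the WT mean. The log2 difference was -0.32 ± 0.13 (limma unadjusted p = 0.0446, adjusted p = 0.315), with a 95% interval of -0.64 to -0.01. KO replicate 2 was the lowest library, and without it the difference was -0.20 (adjusted p = 0.467 by limma), while without KO replicate 1 it was -0.41 (adjusted p = 0.310). A two-sided exact permutation test gave p = 0.1, the least that 3 against 3 samples can give.

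**Figure D2:**
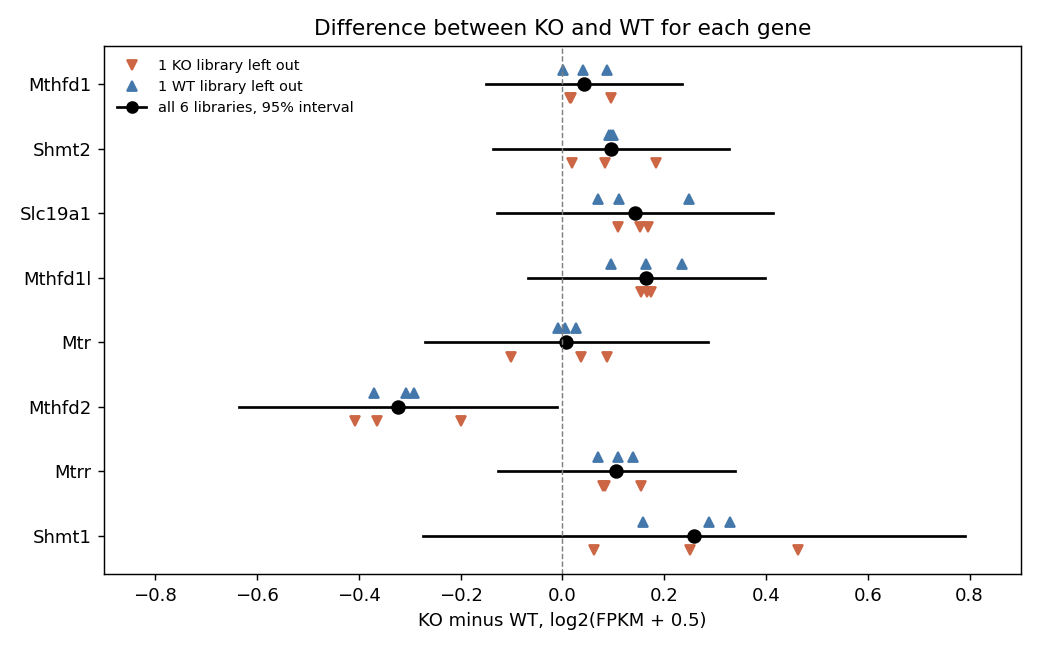
KO minus WT difference of each gene on the log2(FPKM + 0.5) scale (horizontal axis). Black points and lines are the limma estimate from 6 libraries with its 95% interval, and coloured triangles are the estimates with 1 library left out. The interval of Mthfd2 ends at -0.01 and those of the other 7 genes span 0.

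Within the mitochondrial arm the levels of Mthfd2 and Mthfd1l were also set side by side. Mthfd2 took 46.7%, 52.1% and 47.1% of the summed FPKM of Mthfd2 and Mthfd1l for WT replicates 1 to 3, against 41.8%, 34.2% and 40.5% for the 3 KO libraries. The means were 48.6% ± 2.97 in WT and 38.8% ± 4.10 in KO. That these shares do not overlap follows from the values of both genes above, for which the pair was chosen, so the difference of -9.81 points is a description with no test. Mthfd2l, a paralog of Mthfd2 that runs the same reaction in mitochondria, measured 2.74 ± 0.373 FPKM in WT and 2.40 ± 0.541 FPKM in KO. The share of Mthfd2 in the sum with Mthfd2l was 51.6% ± 4.28 in WT and 48.5% ± 1.64 in KO, and it overlapped between the groups (exact permutation p = 0.5, and 0.7 after adjustment over the 3 shares tested).

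**Figure D3:**
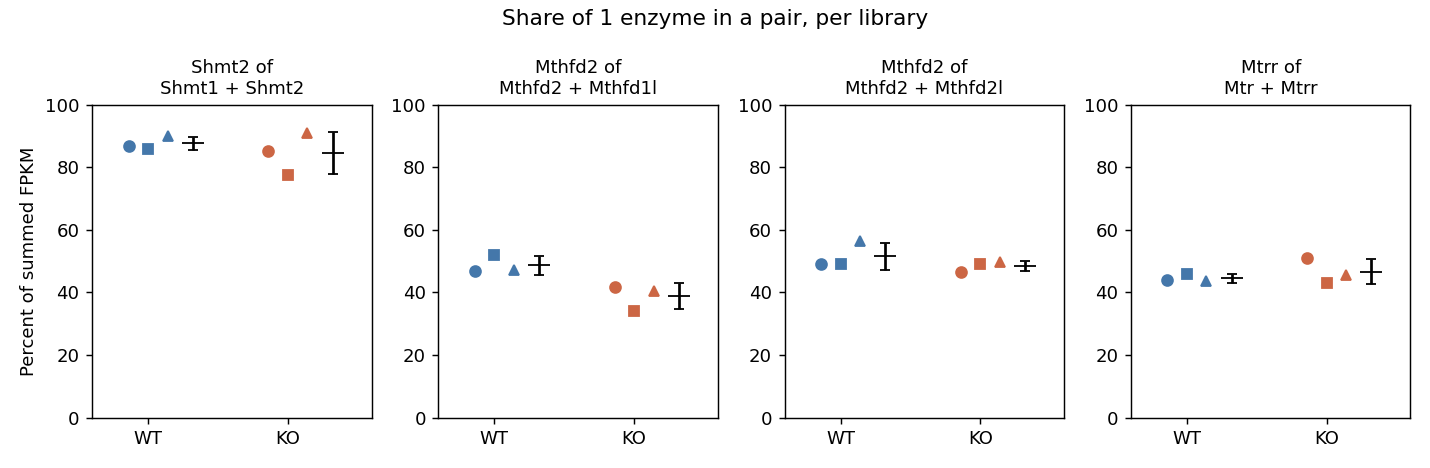
Share of 1 enzyme in the summed FPKM of a pair (vertical axis, percent) in each WT and KO library, with marker shape for the replicate number as circle, square and triangle for 1, 2 and 3, and a bar for the mean ± SD (n = 3). The share of Mthfd2 beside Mthfd1l is 46.7% to 52.1% in WT and 34.2% to 41.8% in KO, and the other 3 shares overlap between the groups.

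Methionine synthase joins the folate cycle to methionine. Mtr (ENSMUSG00000021311, chromosome 13, 12182712 to 12258113, minus strand) gave 2.94, 2.84 and 2.78 FPKM from WT replicates 1 to 3, and KO replicates 1 to 3 gave 2.51, 3.42 and 2.74 FPKM. KO held both the lowest library, replicate 1, and the highest, replicate 2. The log2 difference was 0.01 ± 0.12, with a 95% interval of -0.27 to 0.29, and it was -0.10 without KO replicate 2, -0.01 without WT replicate 3, -0.04 after rescaling to an equal FPKM sum and -0.0376 with voom. Mtrr, the reductase (ENSMUSG00000034617, chromosome 13, 68560780 to 68582149, minus strand), gave 2.29, 2.42 and 2.15 FPKM from WT replicates 1 to 3, and KO replicates 1 to 3 gave 2.61, 2.59 and 2.30 FPKM. KO replicates 1 and 2 were the highest and KO replicate 3 lay among the WT libraries. The log2 difference of Mtrr was 0.11 ± 0.10, with a 95% interval of -0.13 to 0.34, and 0.07 without WT replicate 3. Mtrr took 44.5% ± 1.31 of the summed FPKM of Mtr and Mtrr in WT and 46.6% ± 3.97 in KO, with overlap between the groups (exact permutation p = 0.7, also after that adjustment).

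KO replicate 2 was an extreme library for 5 of the 8 genes, as it was for 45.9% of all genes tested, the highest for Mthfd1, Mtr and Shmt1 and the lowest for Shmt2 and Mthfd2. KO replicate 1 was extreme for 4 of the 8, beside 33.9% of all genes, the highest for Slc19a1, Mthfd1l and Mtrr and the lowest for Mtr. Cell type markers also differed between these libraries. The 10 oligodendrocyte markers summed to 1390 to 1849 FPKM in WT and 839 to 1267 FPKM in KO, lowest in KO replicate 2, and 10 of 10 had a negative difference. The 7 oligodendrocyte precursor markers, 7 of 7 negative, summed to 112 to 155 FPKM in WT and 74.1 to 104 FPKM in KO, again lowest in KO replicate 2. The 10 microglial markers, 10 of 10 negative, summed to 280 to 314 FPKM in WT and 230 to 293 FPKM in KO, with overlap. The 8 choroid plexus markers, of which 3 were abundant enough to test, summed to 35.1 to 39.3 FPKM in WT and 9.39 to 27.9 FPKM in KO, lowest in KO replicate 2. Most of the WT sum was Ttr, at 24.8 to 29.6 FPKM in WT and 0.634 to 18.7 FPKM in KO. The other 2 choroid plexus markers tested, Kl (log2 0.03) and Clic6 (0.10), had positive differences. The 9 medium spiny neuron markers, 9 of 9 positive, summed to 784 to 1052 FPKM in WT and 1120 to 1598 FPKM in KO, highest in KO replicate 2. The 10 excitatory neuron markers, 9 of 10 positive, summed to 361 to 423 FPKM in WT and 619 to 897 FPKM in KO, highest in KO replicate 2. Nrgn and Camk2a made up most of that sum in every library. The 1 negative difference was that of Slc17a6 (log2 -0.59), whereas Slc17a7 had a positive difference (log2 2.45). By library, Slc17a7 stood at 21.4, 94.3 and 19.1 FPKM for KO replicates 1 to 3, against a WT mean of 5.83 FPKM. The median log2 difference of the 10 excitatory neuron markers was 0.86. Of these 10, 8 had an unadjusted limma p under 0.05 with KO higher and 0 with KO lower, and 0 passed the adjusted threshold. Most markers of this list were therefore higher in KO, with Slc17a6 as the exception. Astrocyte markers (686 to 730 FPKM in WT and 680 to 785 in KO) and endothelial markers (104 to 130 and 102 to 119) overlapped between the groups. So did the sums of inhibitory neuron markers (650 to 770 and 737 to 865) and meningeal fibroblast markers (6.72 to 23.9 and 16.1 to 17.7). Of the 8 inhibitory neuron markers, 3 had an unadjusted limma p under 0.05 with KO higher and 1 with KO lower. The lowest meningeal sum was that of WT replicate 1. No marker of these lists was at 0 in all libraries. The part of cell mixture in the values of Mthfd2, Shmt1 and the other 6 genes was not tested.

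The genes with the most similar profile over the 6 libraries were found by the root mean square difference of log2 values centred on each gene's mean, among 12194 protein-coding genes of at least 1 FPKM. For Mthfd2 it was Ppfibp2, at 0.0278, with 1.42, 1.55 and 1.58 FPKM in the WT libraries and 1.38, 0.885 and 1.18 FPKM in the KO libraries. For Slc19a1 it was the amino acid transporter subunit gene Slc3a2, and for Mthfd1l the synaptic vesicle gene Syp. For Mthfd1 it was Copg1, for Shmt2 Exosc2, for Mtr Dph5, for Mtrr Rwdd3 and for Shmt1 Ubtd2. Within 0.1 of Mthfd1 there were 2568 such genes, of Mthfd2 252 and of Shmt1 5, so the near-flat profile of Mthfd1 was shared by many genes.

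In the wider pathway 78 genes in 8 lists were found in the table, and 68 were abundant enough to test. None of the 68 passed over all genes, and the smallest adjusted p was 0.229 (limma). An unadjusted p under 0.05 was reached by 7 of 68, or 10.3%, beside 15.2% of all genes, 4 higher and 3 lower in KO, beside 8.36% and 6.85%. The groups did not overlap for 14 of 68, or 20.6%, beside 22.6%. The median log2 difference was 0.00, and the text below gives values for genes that missed the adjusted threshold.

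Serine supply and mitochondrial serine uptake gave values on both sides. Phgdh, the first enzyme of serine synthesis from glucose, gave 42.0, 43.0 and 45.8 FPKM from WT replicates 1 to 3, and KO replicates 1 to 3 gave 39.4, 30.1 and 38.9 FPKM (log2 -0.28 ± 0.12, limma adjusted p = 0.319). As for Mthfd2, KO replicate 2 was the lowest library and the groups did not overlap, and without it the Phgdh difference was -0.15. Psat1 and Psph, the next enzymes of that route, had log2 differences of -0.08 and 0.07. Sfxn3, of the sideroflexin family of mitochondrial serine carriers, gave 33.0, 31.7 and 31.7 FPKM from the WT libraries, and the KO libraries gave 39.2, 45.1 and 36.4 FPKM (log2 0.32 ± 0.09, adjusted p = 0.229). Its paralog Sfxn1 had a log2 difference of 0.04. Of the 8 serine genes tested, 1 had an unadjusted p under 0.05 in each direction, beside 8.36% of all genes higher and 6.85% lower.

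Glycine cleavage, which feeds carbon units to mitochondrial folate, was tested with choline oxidation in 7 genes, of which 6 had a negative difference (median -0.10). The exception was Gldc, the glycine decarboxylase, with 4.79, 4.38 and 5.37 FPKM in the WT libraries and 5.95, 7.86 and 6.01 FPKM in the KO libraries (log2 0.40 ± 0.13, limma adjusted p = 0.246). Its partners in the same complex, Amt (-0.10), Gcsh (-0.12) and Dld (-0.12), had differences of the other sign. Of the 10 methionine cycle and transsulfuration genes tested, Ahcyl2, a relative of adenosylhomocysteinase, measured 11.2 ± 0.355 FPKM in WT and 9.45 ± 0.588 FPKM in KO (log2 -0.24, adjusted p = 0.246). Mat2a, which makes the methyl donor S-adenosylmethionine, had a log2 difference of 0.02. Bhmt, the folate-independent route to methionine, was listed at 0 in all 6 libraries.

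Cobalamin handling held 3 of 9 tested genes with an unadjusted p under 0.05, where 15.2% of all genes reached it. Mmachc, which processes incoming cobalamin for both Mtr and the mitochondrial mutase, measured 6.74 ± 0.588 FPKM in WT and 8.20 ± 0.787 FPKM in KO (log2 0.26 ± 0.10, limma adjusted p = 0.290). Mmab, which makes the mitochondrial cofactor, measured 9.52 ± 1.13 and 11.4 ± 0.446 FPKM (log2 0.26 ± 0.10, adjusted p = 0.292). Mmut, the cobalamin-dependent mutase, listed in the table under its older symbol Mut, measured 14.4 ± 0.817 and 12.4 ± 0.347 FPKM (log2 -0.20 ± 0.07, adjusted p = 0.280). The list median was -0.06.

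Among the other folate genes 0 of 4 tested for uptake and retention and 0 of 7 for interconversion reached an unadjusted p under 0.05. Ggh, the hydrolase that trims folate polyglutamate, had a log2 difference of -0.17 (-0.11 without WT replicate 2) and Fpgs, the synthase that adds it, 0.10 (0.03 without WT replicate 3 and 0.18 without WT replicate 1). Aldh1l2, the mitochondrial formyltetrahydrofolate dehydrogenase, measured 0.655 ± 0.0584 FPKM in WT and 0.450 ± 0.0521 FPKM in KO without overlap (log2 -0.28 ± 0.15, limma adjusted p = 0.430). At this low level the scale matters, and the Aldh1l2 difference was -0.46 with a pseudocount of 0.1 and -0.58 with voom on recovered reads (adjusted p = 0.193). Its cytosolic counterpart Aldh1l1, also an astrocyte marker, measured 12.7 ± 1.80 and 12.6 ± 2.35 FPKM. The folate receptor genes Folr1 and Folr2, with Tyms, Mthfs and Ftcd, were below the filter of 0.5 FPKM.

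Purine synthesis, a main use of formyl-folate, had a median log2 difference of 0.01 over 9 tested genes. Paics measured 39.6 ± 1.48 FPKM in WT and 35.7 ± 1.75 FPKM in KO (log2 -0.15, limma adjusted p = 0.383), and Adsl 5.005 ± 0.121 and 5.47 ± 0.0406 FPKM (log2 0.12, adjusted p = 0.467, and 0.06 after rescaling to an equal FPKM sum). The folate-dependent enzymes of the route, Gart and Atic, had log2 differences of 0.01 and -0.04. The amino acid stress response, through which the transcription factor Atf4 is known to raise Mthfd2, Phgdh and Psat1, had a median of 0.10 over 14 tested genes with 0 at an unadjusted p under 0.05. Atf4 measured 49.1 ± 1.67 FPKM in WT and 49.5 ± 4.78 FPKM in KO, and Asns, another target, 34.7 ± 2.54 and 34.4 ± 3.13 FPKM. Cebpb (log2 0.38) and Nupr1 (0.43) had the smallest p in that list, with limma adjusted p of 0.345 and 0.437. Single libraries moved both, to 0.24 for Cebpb without KO replicate 1 and to 0.52 without WT replicate 3, and for Nupr1 to 0.19 without WT replicate 1 and 0.65 without WT replicate 3.

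**Figure D4:**
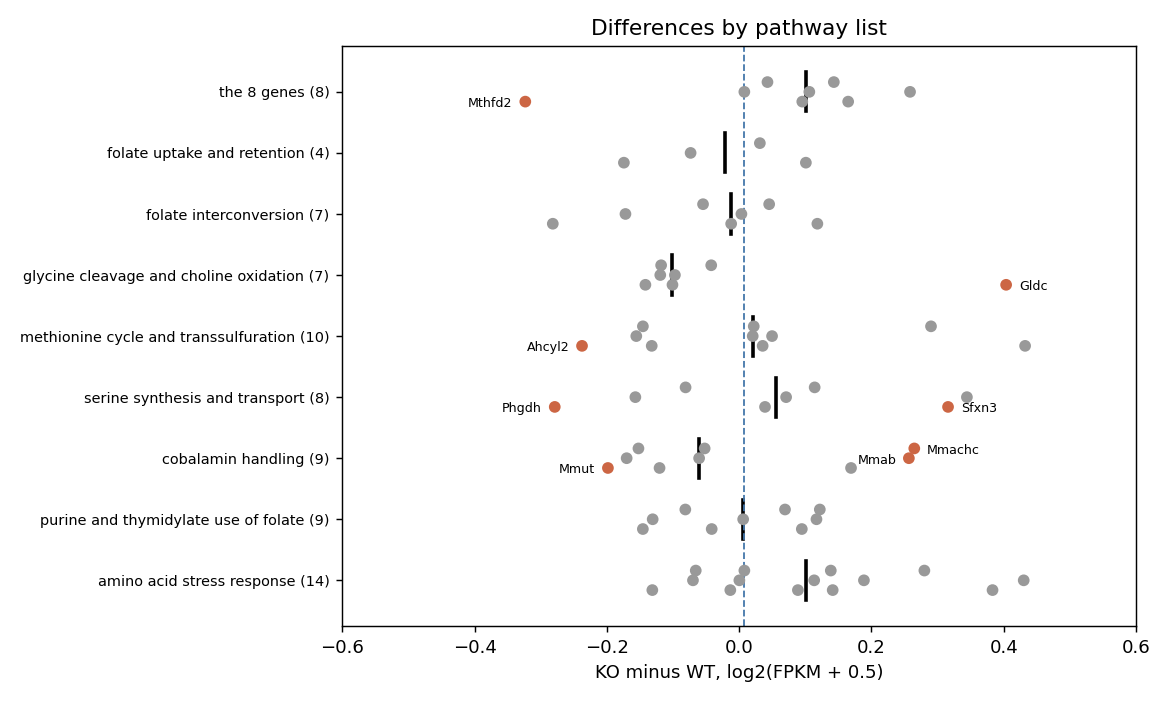
KO minus WT difference of each tested gene on the log2(FPKM + 0.5) scale (horizontal axis) for the 8 genes and 8 further lists, with the number tested in brackets. Black bars are list medians, the dashed line is the median of all genes (0.01), and coloured, named points have an unadjusted limma p under 0.05, of which there are 1 among the 8 genes and 7 among the lists.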

How the data were processed

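Libraries were made from total RNA with a SMARTer mRNA kit, per the labels' protocols. The authors deposited 1 table of FPKM values with gene length and coordinates. Per the submitters' processing notes the build was GRCm38 (mm10). The sources used here do not give the aligner, counter, annotation release or strand setting. FPKM times gene length gave whole multiples of 1 step per library (100% of nonzero values within 0.01 read), which was taken as 1 read. Poisson intervals (95%) cover counting error only and take each read as independent. No molecular identifiers were used, so amplified copies may be counted as separate reads and the intervals may be too narrow.

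limma 3.58.1 in R 4.3.3, with trend and robust empirical Bayes moderation, was run on log2(FPKM + 0.5) for genes averaging 0.5 FPKM or more, with Benjamini-Hochberg adjustment over all genes tested. This scale understates the change of low genes. Exact permutation tests used scipy 1.17.1. Alternatives covered the pseudocount (0.1 or 1), the filter (none, or 5 FPKM), 3 other scalings, other moderation, array weights, a replicate block, protein-coding genes only, voom on recovered reads and leaving out each library. A filter of 10 reads per library and the shares without each library were added after seeing the data.

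The 8 genes and the lists were chosen with earlier results of these data known. Named genes were the 8, Cntnap4, list genes with an unadjusted p under 0.05 or else the 2 with the smallest p, and the 1 gene nearest in profile to each of the 8. Other list genes, Rspo2 and other cell type markers, Xist, Col18a1 and Smcr8 were named outside this rule after their values were seen. Ddit3 has 2 rows in the table, and the more abundant was used. A further gene that the rule names is not reported here.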

Additional observations from a re-analysis of the deposited data

How the results depend on the processing

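None of the 8 genes passed the adjusted threshold under any of the 19 alternatives, although a filter at 5 FPKM kept only Mthfd1 and Shmt2 in the test. The lowest adjusted p was 0.253, for Mthfd2 with voom. Mthfd2 was lower in KO in all 18 alternatives that tested it (log2 -0.44 to -0.20), with an unadjusted limma p under 0.05 in 10 of them. Mthfd1l, Mtrr, Shmt1, Shmt2 and Slc19a1 kept a positive difference wherever tested. Mthfd1 turned to -0.0129 after rescaling to an equal FPKM sum and to -0.00 (-0.0014) with voom. Mtr turned to -0.0414 after that rescaling, with array weights (-0.0425) and with voom (-0.0376), to -0.01 without WT replicate 3 and to -0.10 without KO replicate 2, in a range of -0.10 to 0.0882 over the libraries left out. The median of the 8 stayed within 0.05 and 0.12. Over all genes the main count of 2 became 0 with pseudocount 0.1, no filter, the filter at 5 FPKM, protein-coding genes only, voom, at least 10 reads per library or the replicate block, 1 with quantile normalization and 5 after rescaling to an equal sum. Leaving out 1 library gave 0 to 9 genes, with 9 without KO replicate 1. Genes with an unadjusted limma p under 0.05 were higher in KO in 55.0% of cases, against 33.3% after rescaling to an equal sum and 37.9% with voom, while the median of all genes moved by less than 0.1. Replicate numbers gave no sign of pairing: same-numbered WT and KO libraries had deviations correlated at -0.0899, -0.138 and -0.0661 across genes. With 3 libraries per group, such correlations cannot show that the samples were unpaired. With the replicate block 0 genes and 0 of the 8 passed, and Mthfd2 had an adjusted limma p of 0.512. The cause of these shifts was not tested. None of the pathway genes named by the rule above changed sign or passed the adjusted threshold under any alternative that tested it. Pathway genes named outside that rule were not followed through the alternatives. Few reads limit Shmt1 most, with a counting error of 12.1% at its mean.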

Other observations

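Among the 14 pathway genes whose WT and KO values did not overlap, 5 fell outside the naming rule and are named here with their values already known. All 5 were lower in KO and missed the adjusted threshold. Ahcy, which clears the methylation product S-adenosylhomocysteine, averaged 12.7 ± 0.711 FPKM over WT libraries and 11.4 ± 0.566 over KO libraries (SD, n = 3 per group), and its relative Ahcyl1 78.7 ± 3.33 and 71.7 ± 1.46 FPKM. Dld, the dehydrogenase shared by the glycine cleavage system and the pyruvate dehydrogenase complex, measured 38.8 ± 1.09 and 35.7 ± 0.750 FPKM. Mmaa, a chaperone of the cobalamin-dependent mutase, measured 4.28 ± 0.154 and 3.76 ± 0.316 FPKM, and the purine synthesis gene Pfas 4.24 ± 0.246 and 3.83 ± 0.135 FPKM. Across the 68 tested pathway genes 10 had non-overlapping groups with KO lower and 4 with KO higher, beside 10.8% and 11.8% of all genes.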
